A study of Homo sapiens with 34 samples.

Results

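Wide domains of acetylated histone H3 lysine 27 (H3K27ac) were examined in KELLY, a MYCN-amplified cell line derived from a human neuroblastoma. The corepressor RUNX1T1 was targeted by a short hairpin RNA under the control of doxycycline, and the cells were kept for 72 h in the solvent DMSO or in doxycycline, which switches the hairpin on. H3K27ac had been profiled by chromatin immunoprecipitation and sequencing (ChIP-seq) in 3 libraries per treatment, and 4 other marks (H3K4me1, H3K4me2, H3K4me3 and H3K27me3) in 3 libraries each per treatment. Both groups carried the hairpin, so an effect of doxycycline itself cannot be told apart from that of the knockdown. The domains were chosen by the peak positions of the H3K27ac lists. All 6 lists were pooled, intervals sharing at least 1 bp were merged, and merged regions of 15 kb or more to which every list contributed a peak were kept. This left 1240 domains of 28618 regions called in all 6 lists (4.33%). They spanned 34.3 Mb, 24.0% of the bases of those regions. Number, width, covered share and signal within peaks all depend in part on the rule and are given as descriptions. Since peaks of both treatments were joined, a domain could reach 15 kb through the peaks of 1 treatment.

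H3K27ac marks active promoters and enhancers. Long stretches of it, formed where several active elements lie close together, are often called super-enhancers and are known to gather around the genes that define a cell's identity. In adrenergic neuroblastoma these include the transcription factors of the core regulatory circuit, among them HAND2 and GATA3, which bind each other's enhancers.

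The domains were 15002 to 254915 bp wide, with a median of 21553 bp and quartiles of 17556 and 30502 bp. Of the 1240 domains, 93 were 50 kb or wider and 14 were 100 kb or wider. Just inside the limit stood a domain 18.7 kb from RGS16 (15002 bp) and one 10.4 kb from EPHB3 (15003 bp). Just outside it stood a region near ADARB2 and one over GRIK5 and ZNF574, both of 14993 bp. Of 1241 merged regions at or above 15 kb, 1 was not called in every list and was left out.

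The reads behind the H3K27ac calls numbered 72.2 to 77.7 M in DMSO and 57.0 to 63.4 M in doxycycline, so treatment and depth cannot be told apart. Replicate 3 had the shortest H3K27ac coverage in both treatments (113 Mb in DMSO and 101 Mb in doxycycline, against 120 to 148 Mb in the other 4 libraries). Markers of the labelled cell type were present: the start sites of HAND2, GATA3, TH, DBH and CHGA lay in wide domains. Of 9 markers of blood, endothelium, epithelium, fibroblasts, liver and muscle, none did, and EPCAM was the 1 that lay in any region called in all 6 lists (5399 bp).

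To show what lies at the strongest element of such domains, the 300 bp window centred on the strongest H3K4me2 summit that was not exonic and lay over 1 kb from a coding start site is given for 5 of them. HAND2 and GATA3 stand for the core circuit, RET and the domain near UACA for those with higher signal in doxycycline, and the domain near RWDD3 for those with lower signal. Capitals mark matches on either strand to CAGATG, an E-box of the HAND2 and TWIST type, to the palindromic E-boxes CAGCTG and CACGTG, the latter of the MYC type, to AATNNNATT, a core of paired homeodomain sites, to AGATAA of the GATA factors, to TGTGGTT of the RUNX factors and to TGACTCA of the AP-1 complex. None of the 7 contains another. The sequences are of the forward strand of hg38.
HAND2 domain, chr4:173537902-173538201, within HAND2-AS1 and 7.82 kb from a HAND2 start site: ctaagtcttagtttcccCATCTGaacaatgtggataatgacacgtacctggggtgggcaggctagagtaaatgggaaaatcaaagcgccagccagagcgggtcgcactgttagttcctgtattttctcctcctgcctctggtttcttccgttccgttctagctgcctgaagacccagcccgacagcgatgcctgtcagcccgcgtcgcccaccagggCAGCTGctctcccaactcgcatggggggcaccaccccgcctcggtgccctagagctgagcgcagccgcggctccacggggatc
GATA3 domain, chr10:8048193-8048492, in a GATA3 intron: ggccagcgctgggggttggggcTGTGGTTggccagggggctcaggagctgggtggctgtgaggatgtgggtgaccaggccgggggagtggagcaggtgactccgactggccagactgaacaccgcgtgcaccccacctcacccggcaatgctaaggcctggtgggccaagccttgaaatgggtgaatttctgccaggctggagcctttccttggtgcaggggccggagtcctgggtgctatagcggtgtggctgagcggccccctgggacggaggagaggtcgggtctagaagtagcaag
RET domain, chr10:43094455-43094754, in a RET intron: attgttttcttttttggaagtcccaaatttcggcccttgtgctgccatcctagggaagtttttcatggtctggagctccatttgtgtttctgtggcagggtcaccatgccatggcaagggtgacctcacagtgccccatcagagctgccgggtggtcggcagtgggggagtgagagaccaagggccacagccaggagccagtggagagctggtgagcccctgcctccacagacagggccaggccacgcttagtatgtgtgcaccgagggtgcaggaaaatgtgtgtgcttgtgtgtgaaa
Domain near UACA, chr15:70504946-70505245, within LINC02205: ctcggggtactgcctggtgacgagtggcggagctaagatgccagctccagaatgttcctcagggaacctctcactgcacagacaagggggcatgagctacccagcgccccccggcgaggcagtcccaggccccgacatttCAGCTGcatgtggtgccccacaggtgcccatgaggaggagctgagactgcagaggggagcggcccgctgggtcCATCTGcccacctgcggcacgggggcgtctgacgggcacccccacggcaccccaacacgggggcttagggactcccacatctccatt
Domain near RWDD3, chr1:95381995-95382294, between genes: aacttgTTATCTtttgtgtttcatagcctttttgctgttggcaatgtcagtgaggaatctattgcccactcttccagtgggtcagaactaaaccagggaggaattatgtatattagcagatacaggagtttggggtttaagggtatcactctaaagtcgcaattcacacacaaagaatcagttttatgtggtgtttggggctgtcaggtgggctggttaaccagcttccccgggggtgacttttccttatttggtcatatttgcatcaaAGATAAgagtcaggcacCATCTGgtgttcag
The HAND2 window and the UACA window each held 1 CAGATG and 1 CAGCTG. The GATA3 window held 1 TGTGGTT, the RWDD3 window 2 AGATAA and 1 CAGATG, and the RET window none of the 7. H3K4me2 peaks lay over these summits in all 6 lists. At the RET summit the H3K4me2 pileup (stacked fragments) per M reads was 1.60, 0.998 and 0.814 in DMSO and 3.78, 1.34 and 1.55 in doxycycline, so the treatments overlapped.

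Across 1235 domains with an H3K4me2 summit, the strongest window held CAGCTG in 25.7% and CAGATG in 24.5%. Of 26370 windows in narrower regions, 5804 held CAGCTG and 5772 CAGATG (21.9%). CACGTG was found in 6.72% against 5.45%, and TGTGGTT in 4.13% against 4.24%. AATNNNATT (5.10% against 7.54%), AGATAA (10.9% against 13.4%) and TGACTCA (3.56% against 5.47%) were less frequent in the wide domains. GC content, which moved with these shares, averaged 58.5% in windows of wide domains and 55.4% in the others, and its part in them was not tested. Over 1 kb from a start site, CAGATG was found in 25.8% of windows in wide domains and 25.7% of the others. A match describes the letters of a window and not a bound factor.

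Wide domains held most of the listed genes of the adrenergic state and 1 of those of the mesenchymal state. Of 19970 protein-coding genes, 890 (4.46%) had a start site in a wide domain. Here and throughout, the start of any annotated transcript was counted, so it need not be a gene's main promoter. Of the 27 adrenergic genes listed for this cell type, 15 did (55.6%), among them PHOX2A, HAND1, HAND2, GATA2, GATA3, TBX2, TBX3, TFAP2B, KLF7, KLF13, EYA1, LMO1, TCF4 and MEIS2. These encode transcription factors or their cofactors. ISL1 lay in a region just under the width limit (14331 bp). Of 20 mesenchymal genes, MEF2D was the 1 with a start site in a wide domain, while TWIST1 lay in a region of 14771 bp. The start sites of 12 of the 20, among them PRRX1, RUNX1, FOSL1 and VIM, had H3K27me3, the mark of Polycomb repression, in 6 of 6 libraries. All 12 also had the promoter mark H3K4me3 in 6 of 6, and TBX18, 1 of the 12, had H3K27ac in 6 of 6. Whether the marks lay at the same start site of a gene was not examined, and no share over all coding genes is given beside this count.

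The HAND2 domain (chr4:173504310-173544874, 40565 bp) was covered by H3K27ac peaks over 99.9, 97.0 and 97.4% of its length in DMSO and over 93.3, 96.3 and 93.6% in doxycycline. That of GATA3 (chr10:8044579-8081200, 36622 bp) was covered over 96.9, 99.2 and 93.1% in DMSO and 96.3, 99.3 and 92.9% in doxycycline. Both were thus over 90% filled in every library, and the HAND2 share was slightly lower in every doxycycline library than in any DMSO library. Signal was taken as the pileup within peaks summed over the bases of the domain, per kb and per M reads. Signal values here and below are given after each library was centred on its median over all regions. Before centring, the long peak over HAND2 had a mean pileup per M reads of 3.03, 2.30 and 1.51 in DMSO. In doxycycline it had 3.53, 2.59 and 1.59, so the libraries differed more before centring. In the HAND2 domain the centred signal was 2379, 2266 and 1972 in DMSO and 2403, 2290 and 1924 in doxycycline, and in the GATA3 domain 1575, 1661 and 1382 against 1835, 1755 and 1477. The signals of the treatments overlapped in both. Changes were tested with limma on log2 signal over all 28618 regions, each library centred on its median, and p-values were adjusted by Benjamini-Hochberg. The HAND2 domain had a log2 change of -0.00 ± 0.11 (SE; adjusted p = 0.99) and the GATA3 domain of 0.13 ± 0.12 (SE; adjusted p = 0.44).

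Of the 15 adrenergic domains 1 passed this test, that of GATA2, and their log2 changes ran from -0.34 (MEIS2) to 0.45 (KLF7) with a median of 0.22, against 0.11 over all regions. The GATA2 domain also held EEFSEC and DNAJB8 and was the third widest (chr3:128306567-128499703). Its centred signal was 1530, 1634 and 1352 in DMSO and 2152, 2119 and 1838 in doxycycline. These did not overlap after centring, and the log2 change was 0.44 ± 0.11 (SE; limma, adjusted p = 0.018). The adjusted p was 0.0628 without DMSO replicate 3 and 0.065 without doxycycline replicate 2, 0.172 with quantile normalization and 0.691 without centring. With the replicate number as a block, PHOX2A (adjusted p = 0.025) and KLF7 (0.044) also passed as higher and MEIS2 (0.049) as lower in doxycycline. The domain of the mesenchymal gene MEF2D had a log2 change of 0.36 (limma, adjusted p = 0.058, or 0.030 with the block). MEIS2, a homeobox factor, had covered shares of 100.0, 76.7 and 71.4% in DMSO and 60.1, 55.2 and 57.6% in doxycycline.

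Enzymes and carriers of catecholamine synthesis and storage showed the same placement: 7 of 12 lay in wide domains. TH, the rate-limiting enzyme, shared a domain of 42254 bp with IGF2 and INS. DBH, which turns dopamine into noradrenaline, lay in a domain of 124238 bp with FAM163B and SARDH. DDC, SLC18A2, SLC6A2, CHGA and CYB561 completed the group. None of the 7 passed the test, with log2 changes from -0.18 (SLC18A2) to 0.36 (DBH). With the replicate block, DBH (adjusted p = 0.022) and CYB561 (0.020) passed as higher.

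Among 16 receptors and ligands, 4 had start sites in wide domains, among them ALK, RET and GFRA2, and RET was called. RET is the signalling receptor of the GDNF ligand family. Its domain (chr10:43074784-43127658, 52875 bp) ran from the promoter over the gene body. In DMSO it was covered over 60.3, 53.8 and 39.2% of its length, and in doxycycline over 97.3, 92.8 and 86.5%. Signal was 321, 350 and 324 in DMSO and 653, 625 and 694 in doxycycline, so every doxycycline library lay above every DMSO library. The longest stretch joined by the lists of 1 treatment was 12067 bp for DMSO and 52875 bp for doxycycline, so the domain met the width limit through doxycycline peaks and the difference is a description. The log2 change was 0.99 ± 0.18 (SE; limma, adjusted p = 0.0041), and the adjusted p was 0.00775 to 0.0171 when any 1 library was left out. It was 0.191 without centring and 0.0537 without both libraries of replicate 1. H3K4me1 signal in the same domain had a log2 change of 0.73 (adjusted p = 0.064). In contrast, ALK, a receptor tyrosine kinase often mutated in neuroblastoma, lay in a domain of 82391 bp whose signal of 1186 to 1230 in DMSO and 1275 to 1368 in doxycycline gave a log2 change of 0.12 ± 0.11 (SE; adjusted p = 0.44). GFRA2, a coreceptor of RET, had a log2 change of 0.22 ± 0.23 (SE; adjusted p = 0.52).

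Of 15 neurite genes, TUBB3, NCAM1 and ELAVL4 had start sites in wide domains. ELAVL4 encodes the neuronal RNA-binding protein HuD. Its domain (chr1:50166597-50210806) had signal of 194, 164 and 226 in DMSO and 327, 414 and 510 in doxycycline, a log2 change of 1.08 ± 0.29 (SE; limma, adjusted p = 0.022). This call was lost without DMSO replicate 1, DMSO replicate 2 or doxycycline replicate 2 (adjusted p = 0.0577, 0.0639 and 0.0654) and without centring (0.195). It was also lost without both libraries of replicate 1 (0.0870) or of replicate 2 (0.146). A second domain within the gene (chr1:50146887-50165310) was among the 5 largest increases, with signal of 81.9, 25.8 and 73.5 against 267, 289 and 436 and a log2 change of 2.56 ± 0.58 (SE; limma, adjusted p = 0.011). Neither held an H3K4me3 peak in any library. An ELAVL4 start site did have H3K4me3 in 3 of 3 libraries of each treatment, so those peaks lay outside both domains.

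RUNX1T1, the target of the hairpin, had a start site in a wide domain that lay inside the gene (chr8:92060927-92077390, 16464 bp). H3K27ac covered 69.8, 78.7 and 67.1% of it in DMSO and 37.8, 52.5 and 63.2% in doxycycline, so all DMSO libraries were above all doxycycline libraries. Its signal was 330.5, 385 and 344 in DMSO and 187, 264 and 335 in doxycycline, with 1 doxycycline library inside the DMSO range. The log2 change of -0.47 ± 0.29 (SE; limma, adjusted p = 0.25) did not pass. A hairpin acts on the transcript, so this is no check of the knockdown. Of the other 18 genes of the repressor and MYC network, RCOR2 and MNT lay in wide domains, with log2 changes of 0.01 and 0.11 (adjusted p = 0.95 and 0.51), while CBFA2T2 lay in a region of 14857 bp.

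Of 10 housekeeping genes none lay in a wide domain, although all 10 lay in regions called in every list, GAPDH in one of 14380 bp. The start sites of the non-coding genes MEG3, MALAT1, NEAT1 and LINC00682 lay in wide domains, and none of the 4 passed. With the replicate block NEAT1 passed (log2 change 0.31, adjusted p = 0.036). These lists were chosen with earlier results of these data known.

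The 10 widest domains lay over ZMIZ1 (254915 bp), GSE1 (247592 and 106417 bp), GATA2, SLIT3 (189737 bp), STRA6 with CCDC33 and ISLR (164812 bp), a MAML3 intron (145645 bp), DBH, SSBP3 (114895 bp) and CLPB (112932 bp). ZMIZ1 encodes a transcriptional coactivator, SLIT3 an axon guidance ligand, STRA6 the receptor for retinol-binding protein and MAML3 a Notch coactivator. Of these 10, 6 passed as higher in doxycycline, against 23.9% of all wide domains and 12.6% of all regions. Width was set by the same peaks as the signal, so this count is a description. Over ZMIZ1 the longest stretch joined by the lists of 1 treatment was 91160 bp for DMSO and 231856 bp for doxycycline. The ZMIZ1 domain rose by 0.51 ± 0.13 on the log2 scale (SE; adjusted p = 0.016), from a signal of 758, 775 and 672 to 1077, 1061 and 999. The STRA6 domain rose by 0.52 ± 0.11 (SE; adjusted p = 0.0074), SLIT3 by 0.45, the wider GSE1 domain by 0.50 and CLPB by 0.39 (adjusted p = 0.034, 0.034 and 0.033). The MAML3 domain had a log2 change of 0.39 (adjusted p = 0.068, or 0.045 with the replicate block). All 6 calls were lost with quantile normalization (adjusted p = 0.0663 to 0.39) and without centring (0.616 to 0.711). The call of ZMIZ1 was also lost without doxycycline replicate 2 (adjusted p = 0.0525). Those of SLIT3 and GSE1 were lost without any 1 library but doxycycline replicate 3 (up to 0.089 and 0.107), and that of CLPB without any but DMSO replicate 1 or doxycycline replicate 3 (up to 0.0954).

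H3K27ac filled the wide domains more completely in doxycycline than in DMSO libraries of the same number. The mean covered share was 82.2, 76.3 and 62.4% in DMSO (73.6 ± 10.2%, SD, n = 3) and 87.4, 83.4 and 68.7% in doxycycline (79.8 ± 9.84%, SD, n = 3). The groups overlapped, and replicate 3 was lowest in both. Within same-numbered libraries the differences were 5.19, 7.06 and 6.30 percentage points. In regions of 5 to 15 kb they were -1.75, 0.62 and -2.20 points and in those under 5 kb -5.66, -2.33 and -4.23 points, so the wide domains alone were higher in all 3 pairs. The difference of means, 6.19 points, depended on which libraries entered: it was 0.61 without DMSO replicate 3, 1.84 without doxycycline replicate 1 and 3.94 without doxycycline replicate 2, but 11.6 without DMSO replicate 1 and 11.7 without doxycycline replicate 3. The total length under H3K27ac peaks moved the other way, from a mean of 128 Mb in DMSO to 119 Mb in doxycycline. Domains built from the lists of 1 treatment alone numbered 811 (20.6 Mb) for DMSO and 1007 (28.1 Mb) for doxycycline.

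**Figure D1:**
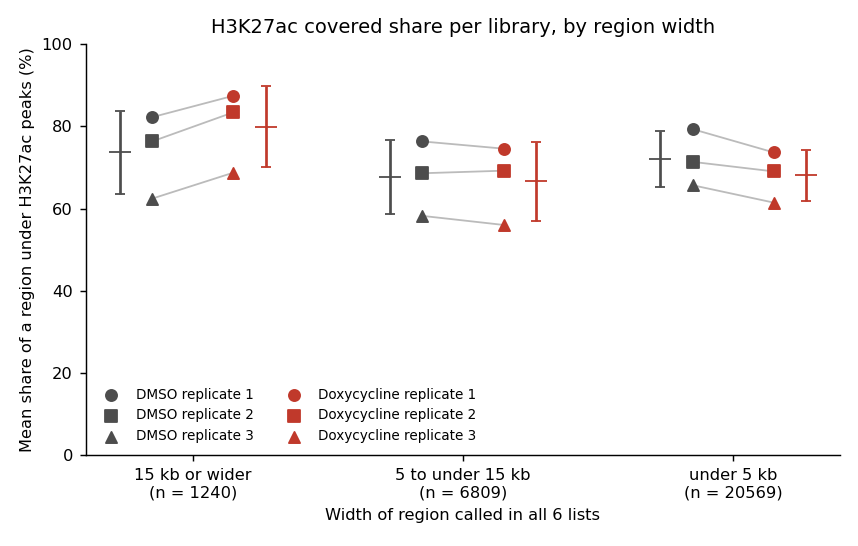
Mean share of each region under H3K27ac peaks (%) in each library, for regions called in all 6 lists in 3 width classes. Grey lines join libraries of the same number, and side bars give mean ± SD (n = 3). Wide domains went up by 5.19 to 7.06 points in each pair, and regions under 5 kb went down.

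Of the 1240 domains, 195 (15.7%) had a covered share that was higher in every doxycycline library than in any DMSO library, against 7.25% of all 28618 regions. The reverse held for 92 (7.42%), against 13.1% of all regions. Without doxycycline replicate 3 or DMSO replicate 1, 543 and 341 domains were higher in doxycycline. Without DMSO replicate 3, 171 were higher in DMSO. With fewer libraries non-overlap is easier for any region, and the shares of all regions are not given for these 3 counts. They are no result about the wide domains.

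By limma, the signal of 296 domains (23.9%) was higher in doxycycline, against 12.6% of all regions, and that of 79 (6.37%) was lower, against 8.62% of all regions. The median log2 change was 0.25 in the domains and 0.11 in all regions. Changes of at least 2-fold were found in 82 of the higher and 32 of the lower domains, and no share over all regions is given for these. Of the calls in wide domains 78.9% were thus higher, while over all regions 3594 were higher and 2466 lower. With quantile normalization the split was 192 higher (15.5%, against 6.74% of all regions) and 115 lower (9.27%, against 7.61%). Thus 62.5% of the calls in wide domains were higher, while over all regions 1930 were higher and 2177 lower. The median was 0.10 in the domains and 0.02 in all regions. With peaks of q 0.001 or less, 14.1% of domains were higher, against 6.23% of all regions, and 8.92% lower, against 8.31%. The lower share of decreases in wide domains than in all regions thus turned around in both settings, whereas the share of increases stayed above that of all regions. Without centring, 30 were higher (2.42%, against 1.22% of all regions) and 10 lower (0.806%, against 1.897%). Calls of higher signal fell to 193 without DMSO replicate 3, 164 without doxycycline replicate 1 and 149 without doxycycline replicate 2. These were 15.859, 15.457 and 13.002% of domains, against 8.141, 6.273 and 6.802% of all regions. Calls of lower signal fell to 30, 31 and 51 without DMSO replicate 1, 2 and 3. These were 2.593, 2.632 and 4.191% of domains, against 4.053, 3.819 and 4.401% of all regions. The calls thus fell over all regions too, and the listed shares of increases stayed higher in wide domains.

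These counts and their p-values are not independent of the choice of domains, since the signal is summed over the same peaks that set the width. The lists of each treatment alone joined a stretch of 15 kb or more in 603 domains (48.6%). In another 386 only the doxycycline lists did, in 156 only the DMSO lists, and in 95 neither. Of the 386, 168 were called higher and 0 lower, and of the 156, 56 were called lower and 0 higher. Among the 603 that met the limit in both treatments, 123 were higher (20.4%) and 21 lower (3.48%), with a median log2 change of 0.23 and a covered share 4.54 points higher in doxycycline. This division was made after the calls were seen.

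**Figure D2:**
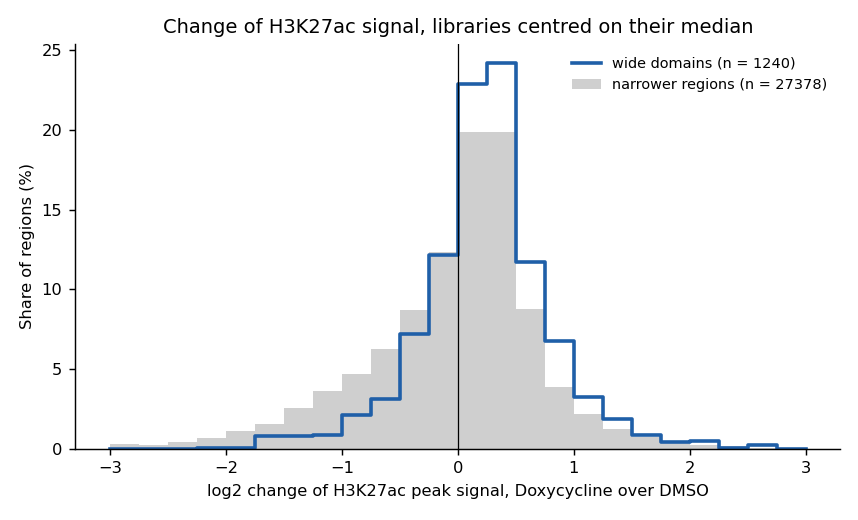
Distribution of the log2 change of H3K27ac peak signal (doxycycline over DMSO, bins of 0.25, values beyond the ends counted in the last bins) in 1240 wide domains (line) and in 27378 narrower regions (bars). The wide domains lie to the right, with a median of 0.25 against 0.11 in all regions, and few fall below -1.

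Domains with lower signal were mostly without a coding start site. One lay inside 16 of the 79 lower domains (20.3%), 162 of the 296 higher ones (54.7%) and 59.0% of the 865 not called. H3K4me3 was present in all 6 libraries in 22 of the lower domains (27.8%), in 54.7% of the higher and in 57.7% of those not called. H3K4me2 was present in 6 of 6 libraries in 93.7, 94.3 and 92.4% of these groups.

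The 5 largest increases by limma lay in an intron of GNG4, 292 kb from SOX9, within ELAVL4, 75.2 kb from RASGRF1 and 152 kb from UACA. The GNG4 domain (chr1:235545551-235561300; GNG4 encodes a G protein gamma subunit) had signal of 155, 122 and 153 in DMSO and 951, 1160 and 770 in doxycycline, a log2 change of 2.72 ± 0.24 (SE; limma, adjusted p = 0.00018). The domain nearest SOX9, a neural crest transcription factor (chr17:72412639-72428367), had signal of 116, 152 and 94.8 against 715, 830.5 and 649, a log2 change of 2.60 ± 0.28 (SE; adjusted p = 0.00043). That near RASGRF1, a Ras exchange factor, rose by 2.32 on the log2 scale (adjusted p = 0.00043). The domain near UACA (chr15:70486503-70510027) went from 181, 186 and 186 to 871, 886 and 859, a log2 change of 2.24 ± 0.20 (SE; adjusted p = 0.00018). All 5 calls held without any 1 library, with quantile normalization and without centring. In these 5 the DMSO lists alone joined at most 2939 to 6457 bp and the doxycycline lists 15729 to 23525 bp. They thus met the width limit through their doxycycline peaks, and their differences are given as a description. Large gains of covered share were also seen in an intron of PLXNA4, a semaphorin receptor (30.1, 32.1 and 23.7% against 93.2, 89.3 and 73.8%), and 305 kb from KCNU1 (36.3, 35.7 and 29.0% against 89.4, 98.7 and 76.6%).

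The 5 largest decreases lay 128 kb from RWDD3, 212 kb from EYA1, 196 kb from S1PR1, over GRHL3 and 131 kb from OAT. The domain near RWDD3 (chr1:95373636-95389373) had signal of 636, 635 and 584 in DMSO and 115, 152 and 143 in doxycycline, a log2 change of -2.18 ± 0.26 (SE; limma, adjusted p = 0.00072). The domain in the EYA1 neighbourhood (chr8:71041484-71058085) went from 536, 530 and 636 to 86.6, 167 and 202, a log2 change of -1.98 ± 0.33 (SE; adjusted p = 0.0029). The separate domain at an EYA1 start site had signal of 707, 897 and 724 against 531, 1086 and 895, which overlapped. Its log2 change was 0.06 ± 0.22 (SE; limma, adjusted p = 0.87). GRHL3, an epithelial transcription factor, was the 1 of the 5 with its own start site inside the domain (chr1:24334492-24349613), and its signal went from 446, 513 and 447 to 166, 117 and 150, a log2 change of -1.71 ± 0.29 (SE; adjusted p = 0.0032). The domains near S1PR1 and OAT fell by 1.72 and 1.70 on the log2 scale (adjusted p = 0.0012 and 0.00064). All 5 calls held without any 1 library. In these 5 the DMSO lists joined 15122 to 40987 bp and the doxycycline lists at most 2673 to 8532 bp, so they entered through their DMSO peaks and are likewise a description. Large losses of covered share were also seen over FMOD (99.5, 90.9 and 66.4% against 45.5, 22.8 and 23.7%) and within RANBP17 and TLN2. Of these, RANBP17 was not called without DMSO replicate 1, DMSO replicate 2 or doxycycline replicate 1 (adjusted p = 0.0682, 0.121 and 0.0545), nor TLN2 without DMSO replicate 2 (0.0525). Without centring FMOD, RANBP17 and TLN2 did not pass (0.0846, 0.117 and 0.0592).

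**Figure D3:**
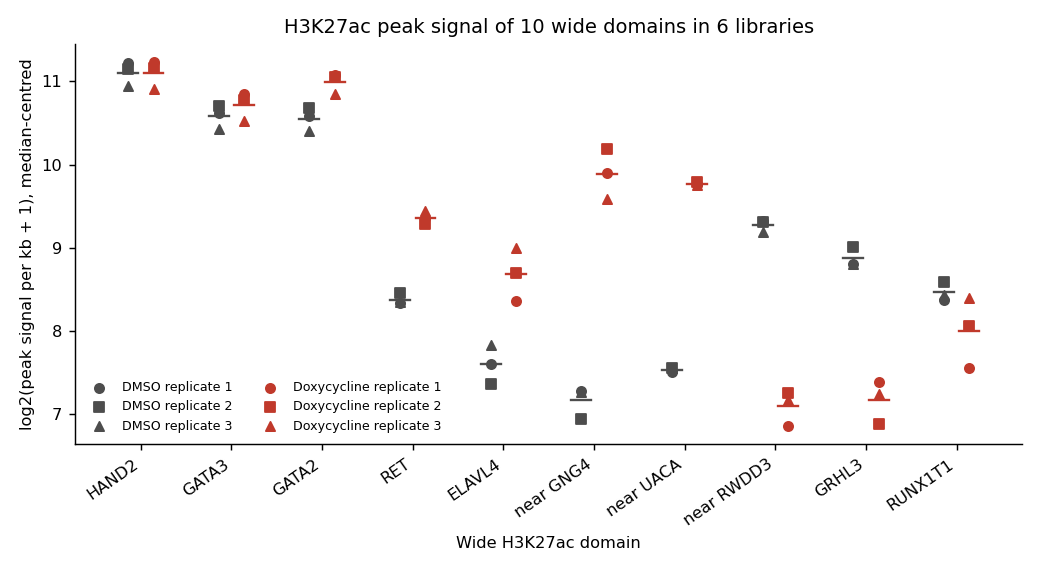
H3K27ac peak signal (log2 of signal per kb plus 1, centred on library medians) of 10 wide domains in 6 libraries. Points are libraries and bars group means (n = 3). HAND2 and GATA3 overlap between treatments, whereas RET, ELAVL4, GNG4 and UACA are higher and RWDD3 and GRHL3 lower in every doxycycline library.

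**Figure D4:**
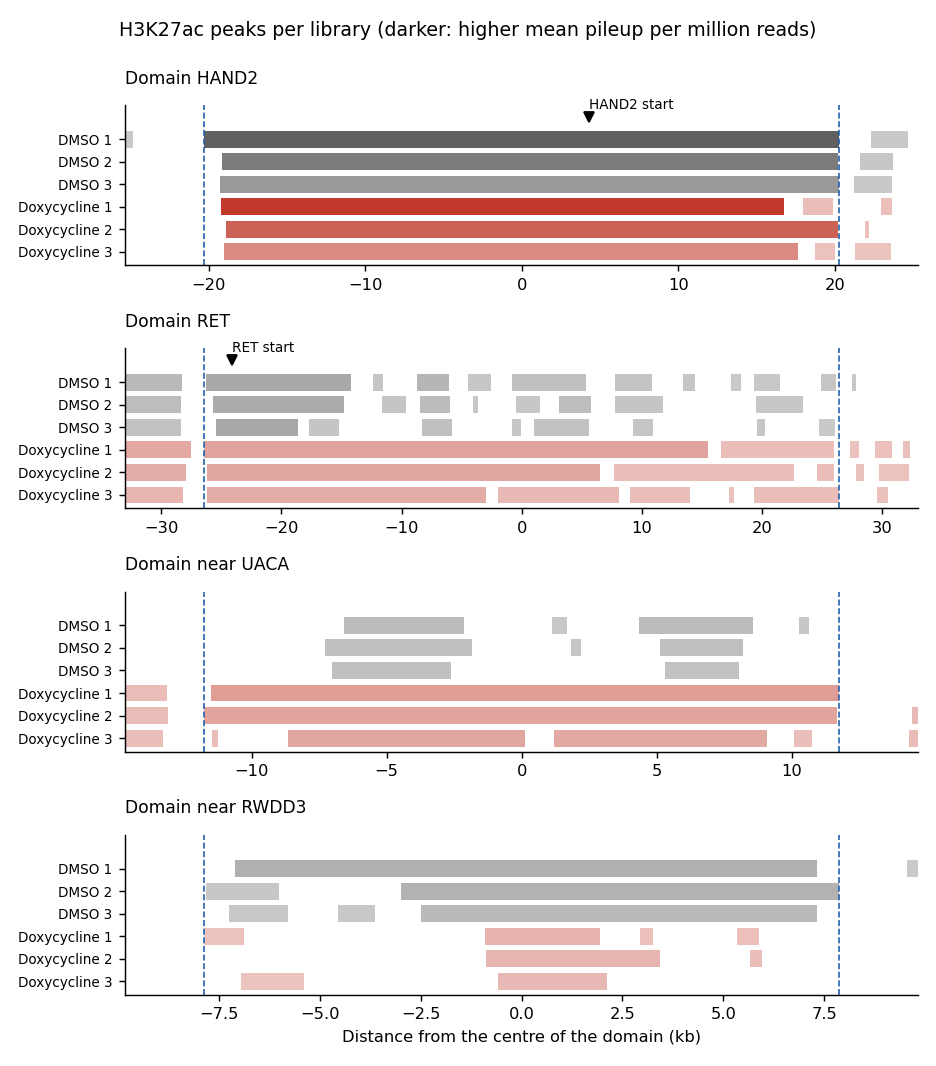
H3K27ac peaks of each library over 4 domains, by distance from the centre of the domain (kb). Dashed lines are the domain's ends, triangles coding start sites, and darker bars a higher mean pileup. HAND2 is nearly filled in all 6 libraries, RET and UACA are split in DMSO and mostly joined in doxycycline, and RWDD3 shrinks in doxycycline.

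The other marks were not used to choose the domains. H3K4me1, the mark of enhancers, was present in all 6 libraries in 99.6% of domains and H3K4me2 in 92.9%, against 96.7 and 72.5% of regions of 5 to 15 kb. A wider region is more likely to hold a peak of any mark. The mean share of bases under H3K4me2 peaks was 28.2% in wide domains, 29.6% in regions of 5 to 15 kb and 50.1% in those under 5 kb, and for H3K4me1 66.0, 62.4 and 59.6%. H3K4me3, the promoter mark, was present in all 6 libraries in 683 domains (55.1%) and in none in 185 (14.9%). It was present in all 6 in 38.9% of regions of 5 to 15 kb and 53.0% of those under 5 kb. It was present in none in 39.9 and 37.8% of these. A start site inside and H3K4me3 in every library were found together in 505 domains, and neither in 117. H3K27me3 was present in no library in 91.5% of domains, against 95.6% of regions of 5 to 15 kb and 94.3% of those under 5 kb. It was present in all 6 in 6 domains (0.484%, against 0.485 and 1.10%). A coding start site lay inside 688 domains (55.5%), against 39.7% of regions of 5 to 15 kb and 46.5% of those under 5 kb. Introns made up 62.9% of the bases, exons 7.93% and intergenic sequence 29.2%. A median of 6 merged H3K4me2 peaks lay in a domain, and as many as 57 in 1. Per 10 kb there were 2.44 in wide domains and 3.67 in narrower regions.

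Few domains were called for H3K4me1 signal. Of 1239 domains tested, 2 were higher in doxycycline by limma (0.161%, against 0.0651% of 27665 regions) and 0 were lower (against 0.0217%), while 278 higher (22.4%) and 81 lower (6.54%) had an unadjusted p under 0.05, against 10.2 and 7.04% of all regions (2818 and 1947 of 27665). In covered share the difference between same-numbered libraries was -2.70, -2.35 and 0.49 percentage points over the wide domains. The share was higher in every doxycycline library than in any DMSO library in 81 domains (6.53%) and the reverse held for 151 (12.2%), against 5.11 and 13.8% of regions of 5 to 15 kb and 3.25 and 9.19% of those under 5 kb. The 2 were the domain near UACA, with a log2 change of 0.81 ± 0.09, and one over HMCN2 (chr9:130412724-130440388), with 0.93 ± 0.09 (SE; adjusted p = 0.049 for both), the latter named after its values were seen. Its centred H3K4me1 log2 signal was 8.28, 8.32 and 8.25 in DMSO and 9.25, 9.28 and 9.13 in doxycycline. Both calls were lost whichever library was left out, and with the replicate number as a block 0 domains were called in either direction. The median H3K4me1 change was 0.30 in the 296 domains with higher H3K27ac, -0.36 in the 79 with lower and 0.07 in those not called. Both comparisons used the same inputs.

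KELLY cells have gains and losses of chromosome segments, and copy number enters a pileup directly. The local input level behind each peak was taken as pileup over fold enrichment, relative to the median peak of the list. It was 0.786 to 5.39 in the wide domains, with a median of 1.23, against 1.11 in narrower regions. It reached 1.5 in 286 domains (23.1%), against 12.8% of narrower regions. On chromosome 17 the median was 1.67 and 62 of 98 domains reached 1.5. Chromosome 22 (1.62), 9 (1.48) and 7 (1.48) followed, while chromosome 18 (0.809) and X (0.826) were lowest. The highest values were those of a pair of neighbouring domains near CCDC200 on chromosome 17 (5.39 and 4.98), followed by ZFP36L2 (2.60), a domain near HAAO (2.27) and FASN with CCDC57 (2.21). The CCDC200 domains were called higher in doxycycline (log2 changes 0.47 and 0.43, adjusted p = 0.010 and 0.024), but the second was not without DMSO replicate 1, DMSO replicate 3 or doxycycline replicate 2 (0.0706, 0.0606 and 0.0786). Both were lost with quantile normalization (adjusted p = 0.155 and 0.261) and without centring (0.677 and 0.701).

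**Figure D5:**
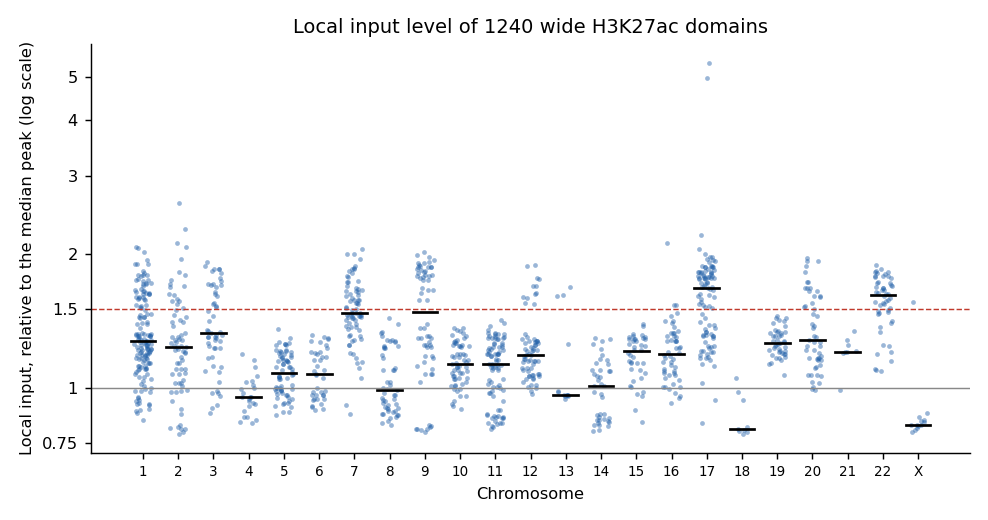
Local input level of each wide domain (points; log scale, relative to the median peak) by chromosome, with the chromosome's median (black bar). The dashed line marks 1.5. Chromosomes 17 and 22 stand high and chromosomes 18 and X low, and 2 domains of chromosome 17 lie near 5.

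Across the 1240 domains the local input correlated with the pileup (Spearman's rho = 0.50) but hardly with the fold enrichment (-0.03), the width (0.03) or the log2 change (0.03). These are descriptions over domains that share libraries. The adrenergic domains were found at ordinary and at raised input: the HAND2 domain stood at 1.15 and GATA3 at 1.31, whereas GATA2 (1.91), TBX2 (1.87) and DBH (1.87) stood higher. MYCN itself lay in no region called in all 6 lists: a H3K27ac peak covered its start site in 3 of 3 DMSO and 0 of 3 doxycycline lists. H3K4me1 peaks did so in 3 and 0 lists, H3K4me2 peaks in 1 and 0 and H3K4me3 peaks in 2 and 1. MYCN is amplified in these cells, and the calling depth was lower in doxycycline. The part of copy number and depth in these counts was not tested. Within 5 Mb of MYCN lay 2 wide domains and 106 narrower regions.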

How the data were processed

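ChIP-seq peak lists of KELLY cells (DMSO or doxycycline for 72 h, 3 libraries per mark and treatment) were used. The members and gene lists were chosen with earlier results of these data known. Per the labels and file headers, the authors aligned reads to hg38 and called each library with MACS2 2.1.1.20160309 against an input, in broad mode (q 0.05, linked at 0.1) for H3K27ac, H3K4me1 and H3K27me3 and in narrow mode (p 1e-05) for H3K4me2 and H3K4me3. The deposited pileup is a fragment coverage (signal), and the deposited fold enrichment is its ratio to the local input. The −log10 p-value and the −log10 of the q-value, both from the caller, were deposited beside them. MACS2 scales the deeper of ChIP and input down, so the calling depth (57.0 to 63.4 M in doxycycline, 72.2 to 77.7 M in DMSO for H3K27ac) limits weak peaks, and replicate 3 shared its input totals with replicate 1.

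Regions were built on chromosomes 1 to 22 and X (python 3.11.15, numpy 2.4.6, pandas 2.3.3) and annotated with GENCODE 44. Signal per kb per M reads of calling depth was tested as log2(signal + 1), libraries centred on their median over 28618 regions, with limma 3.58.1 (trend; R 4.3.3) and Benjamini-Hochberg adjustment at 0.05. Covered shares carry no test, since 3 against 3 libraries cannot give an exact p below 0.1. Nothing in the labels says that replicates were separate cultures, so p-values measure the spread between these libraries, which may be technical. Replicate numbers came from the sample titles. Deviations of same-numbered H3K27ac libraries from their group means correlated in each pair (0.233, 0.127 and 0.279). Covered shares were also compared within same-numbered pairs. The limma results are of a fit that ignored the pairs, unless the replicate block is named. The block is given where it changed the call of a domain reported here. Named were the 10 widest domains, those of listed genes, up to 5 per direction by covered share and by limma, the 5 with the highest local input, and 2 on each side of the width limit. A few listed genes are not reported here. Functions were checked against bedtools and tested on simulated data. Motif windows over 1 kb from start sites, and domains that reached 15 kb in each treatment alone, were added as alternatives after seeing the data.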

Additional observations from a re-analysis of the deposited data

How the results depend on the processing

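The number of domains was 845 to 1238 under every other setting except a width limit of 12 kb (1838) or 20 kb (729), and 941 to 1218 when libraries were left out. The covered share difference kept its sign in every setting, at 0.61 to 11.7 points without single libraries or replicate numbers and 6.19 ± 0.94 (SD, n = 3) within same-numbered pairs (replicate block). Domains higher in all doxycycline libraries numbered 174 to 545 with libraries left out. Domains higher in all DMSO libraries numbered 70 to 180 with libraries left out, 51 when a base needed 2 lists, 171 at 12 kb and 47 at 20 kb. Leaving libraries out makes non-overlap easier for any region, and shares of all regions are not given beside these counts.

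By limma, higher H3K27ac calls numbered 85 to 384 with libraries left out and 30 without centring (2.42%, against 1.22% of all regions). They numbered 192 with quantile normalization (15.5%, against 6.74%) and 163 with peaks of q 0.001 or less (14.1%, against 6.23%). In domains that reached 15 kb in each treatment alone, 123 (20.4%) were higher. Lower calls numbered 19 to 66 with libraries left out and 10 without centring (0.806%, against 1.897% of all regions). They numbered 49 when a base needed 2 lists, 145 at 12 kb and 42 at 20 kb. Among domains that reached 15 kb in each treatment alone, 21 were lower. Without both libraries of replicate 1, 9.03% of domains were higher, against 2.99% of all regions, and 2.02% lower, against 1.95%. Without doxycycline replicate 3, 31.5% were higher, against 16.0% of all regions, and 5.42% lower, against 9.20%. The replicate block gave 398 higher (32.1%, against 17.7% of all regions) and 97 lower calls (7.82%, against 11.3%). These included all 296 and 79 of the unblocked fit, and the causes of these shifts were not tested. For H3K4me1 the deviations of same-numbered libraries correlated at 0.302, 0.204 and 0.073 over all regions and 0.163, 0.293 and 0.324 over the wide domains, so the pairing was not settled by this check, and the replicate block gave 0 higher calls. H3K4me1 higher calls were 0 to 0 with libraries left out, 0 without centring and 0 at q 0.001. Lower calls were 1 with quantile normalization and 1 when a base needed 2 lists.

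Asking that peaks cover 10% of a domain lowered the share with a mark in all 6 libraries to 98.8% (H3K4me1), 64.8% (H3K4me2), 26.8% (H3K4me3) and 0.0% (H3K27me3). A start site within 5 kb was found for 60.0% of domains, and one inside for 52.3% at 12 kb and 58.6% at 20 kb. AATNNNATT was found in 6.70% of windows over 1 kb from a start site. Of 26 named calls, 17 held without any 1 library, 18 with quantile normalization, 13 without centring and 26 with the replicate block. No call changed its sign in these settings. Peak lists hold no reads outside peaks, so weak signal in the gaps of a domain was not measured.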

Other observations

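Chromosome 17 held the largest share of wide domains among its regions (98 of 1581, 6.20%), and chromosome X the smallest (13 of 680, 1.91%).

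In 180 domains (14.5%) at least 2 coding genes started inside. A coding start site of some annotated transcript lay inside 68 domains although no library had an H3K4me3 peak, as in the ELAVL4 domain.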
